A study of Mus musculus with 12 samples.

Results

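The transcripts of 10 genes for secreted or apical proteins of epithelia were followed in 6 HER2-driven mammary tumors and in 6 samples of benign mammary tissue. They were chosen by name from a list of 10 symbols (Lcn2, Ltf, Cp, Pigr, Muc1, Muc15, Wfdc2, Wfdc18, Slpi and Spp1), and all 10 were among the 16411 genes of the count table and among the 13191 genes that passed the filter on low counts. All 12 samples came from female MMTV-Neu-NDL-YD5 transgenic mice on an FVB background, so the benign tissue carried the transgene as well. In this line the MMTV promoter, which is active in mammary epithelium, drives a form of Neu, the Erbb2 (HER2) receptor, with an add-back mutation at the YD autophosphorylation site. Benign tissue was mammary fat pad without a visible tumor, and tumors and benign samples were taken from different mice that had been monitored for tumors from 10 weeks of age.

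These proteins coat and guard the surface of glandular epithelia. Lipocalin 2 (Lcn2), lactoferrin (Ltf) and ceruloplasmin (Cp) handle iron: the first captures the siderophores with which bacteria collect iron, the second binds free iron in milk and other secretions, and the third oxidizes ferrous iron so that transferrin can carry it. The polymeric immunoglobulin receptor (Pigr) carries dimeric IgA across the epithelium, mucins such as Muc1 and Muc15 cover the apical membrane, and the small WAP-domain proteins Wfdc2, Wfdc18 and Slpi include inhibitors of serine proteases. Osteopontin (Spp1) is a phosphorylated glycoprotein of milk and bone that binds integrins and Cd44, and it is also made by macrophages.

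The libraries held 5240853 to 8588567 counts. Erbb2 lay between 1989 and 16634 CPM (counts scaled to library size) in the tumors and between 44.8 and 73.7 CPM in the benign samples. Markers of luminal epithelium summed to 700 to 2168 CPM in the benign samples and 3231 to 4774 CPM in the tumors, and 9 of 10 were higher in tumors, while all 8 basal markers were lower. Skeletal muscle markers summed to 38530 to 98350 CPM in benign samples 3, 4 and 6 and to 38.7 to 409 CPM in the other benign samples, and benign sample 1 held 592 CPM of B cell and plasma cell markers against 6.39 to 19.6 CPM in the rest of its group. In bulk tissue a smaller share of a cell type and less RNA per cell cannot be told apart.

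The 250 bases before the RefSeq start site are shown for the pair of members with every tumor above every benign sample (Lcn2 and Pigr) and for the pair that fell (Slpi and Wfdc2). Sequences run 5′ to 3′ on the strand of the gene (RefSeq, GRCm38.p6), and capitals mark matches on either strand to 5 short motifs, NF-kB (GGG and CC with any 5 bases between them), STAT (TTCNNNGAA), C/EBP (TTGCNNAA), AP-1 (TGANTCA) and ETS (AGGAAG).
Lcn2, chr2:32387740-32387989, minus strand: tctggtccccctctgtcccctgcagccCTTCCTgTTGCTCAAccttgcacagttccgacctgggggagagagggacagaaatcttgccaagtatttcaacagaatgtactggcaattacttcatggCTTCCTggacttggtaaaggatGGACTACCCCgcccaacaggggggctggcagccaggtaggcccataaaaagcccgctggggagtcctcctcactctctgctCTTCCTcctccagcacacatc
Pigr, chr1:130826434-130826683, plus strand: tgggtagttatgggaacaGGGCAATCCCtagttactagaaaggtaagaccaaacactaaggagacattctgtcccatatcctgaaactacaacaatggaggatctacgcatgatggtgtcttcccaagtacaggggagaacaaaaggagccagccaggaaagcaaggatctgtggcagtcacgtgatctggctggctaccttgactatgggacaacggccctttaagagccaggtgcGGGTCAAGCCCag
Slpi, chr2:164356508-164356757, minus strand: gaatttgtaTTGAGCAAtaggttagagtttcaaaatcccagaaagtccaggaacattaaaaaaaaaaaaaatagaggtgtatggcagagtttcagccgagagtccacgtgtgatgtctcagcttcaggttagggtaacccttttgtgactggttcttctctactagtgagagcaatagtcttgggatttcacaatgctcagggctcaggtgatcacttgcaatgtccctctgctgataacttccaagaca
Wfdc2, chr2:164562465-164562714, plus strand: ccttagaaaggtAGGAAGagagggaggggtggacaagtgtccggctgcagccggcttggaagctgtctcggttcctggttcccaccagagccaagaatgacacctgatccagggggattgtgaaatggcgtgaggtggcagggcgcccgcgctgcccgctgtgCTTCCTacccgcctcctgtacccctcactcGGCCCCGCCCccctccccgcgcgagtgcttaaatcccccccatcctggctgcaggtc
The Lcn2 window held an NF-kB match from -102 to -93 relative to the start site, a C/EBP match from -216 to -209 and 3 ETS matches, and the Pigr window held 3 NF-kB matches, of which a pair overlapped. The Slpi window held a single match, to the C/EBP motif, and the Wfdc2 window held an NF-kB match and a pair of ETS matches. Among the 9 members with a sequence in the table, NF-kB matches were found in 4, ETS in 5, C/EBP in 3, AP-1 in 1 and STAT in 0, while 45.4%, 29.2%, 9.55%, 6.87% and 7.18% of 27025 promoter windows of the same length held them. Slpi and Wfdc2 both lie on chromosome 2, with RefSeq start sites 206 kb apart. In GENCODE M21 the upstream ends of Slpi (164389095), Lcn2 (32388252) and Wfdc2 (164562413) lie farther out than these RefSeq sites. The distance and the windows of these genes therefore depend on the annotation.

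Of the 10 genes, 4 were higher in tumors (Lcn2, Pigr, Spp1 and Wfdc18), 2 were lower (Slpi and Wfdc2), and Cp, Ltf, Muc1 and Muc15 did not pass the test. The test was edgeR's two-sided quasi-likelihood test over all 13191 genes, read at a Benjamini-Hochberg adjusted p-value under 0.1, and by the same rule 28.2% of all genes were higher and 34.8% lower (63.0% in either direction), so the number of members called was close to the background. The median log2 fold change was 0.68 over the 10 genes and -0.06 over all genes tested. DESeq2 also called 4 members higher and 2 lower. Without the muscle-rich benign samples 3, 4 and 6, 3 members were higher and 1 was lower. Among all genes this fit with fewer samples called 3629 higher and 3906 lower, against 3720 and 4594 with all samples.

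**Figure D1:**
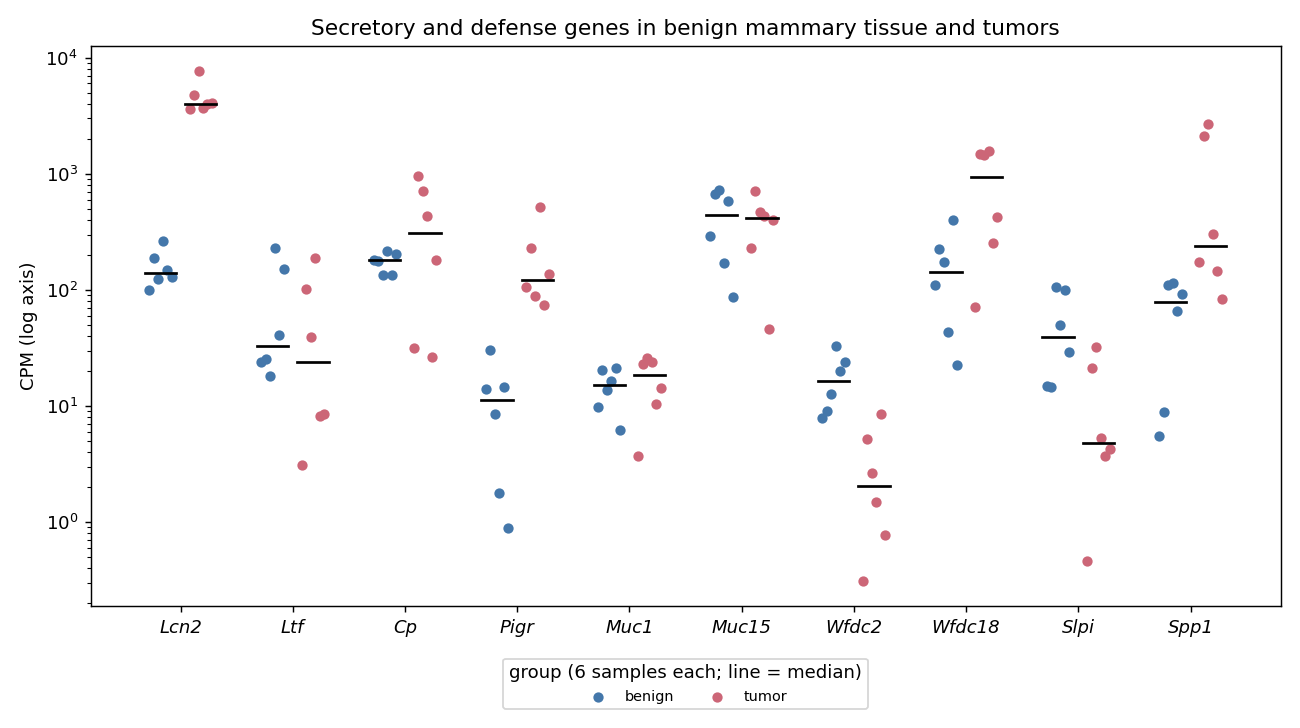
CPM of the 10 genes on a log axis, with a point for each of 6 benign and 6 tumor samples and a line at the group median. Every tumor lay above every benign sample for Lcn2 and Pigr, and the groups overlapped for the other 8 genes.

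Of Lcn2, Ltf and Cp, only Lcn2 passed the test. Lcn2 (chr2:32384637-32387739, minus strand, RefSeq gene position in GRCm38.p6) ranged from 99.9 to 262 CPM in the benign samples (median 139.5) and from 3637 to 7624 CPM in the tumors (median 4016, n = 6 per group). All 6 tumors lay above all benign samples, as was the case for 14.7% of the genes tested and for 2 of 10 members, while all tumors lay below all benign samples for 21.2% of genes and 0 of 10 members. Its log2 fold change was 4.86 (SE, the standard error, 0.31, adjusted p = 4.7e-08 by edgeR; exact permutation test, two-sided, p = 0.00216, the smallest p-value that 6 samples against 6 allow). Ranked by counts, Lcn2 stood between place 5 and place 9 of all genes in the tumors and between place 729 and place 2216 in benign tissue. The highest value was that of tumor sample 3, and the other 5 tumors lay within 3637 to 4793 CPM. No other member was as even among the tumors, with a highest-to-lowest ratio of 2.10 for Lcn2 and of 6.93 or more for each of the others.

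Ltf (chr9:111019292-111042766), the other iron-scavenging protein of secretions, spread over a wide range in both groups. It lay between 18.1 and 229 CPM in the benign samples (median 33.0) and between 3.11 and 187 CPM in the tumors (median 23.8). Benign samples 4 and 6, with 229 and 151 CPM, were the highest of their group, and tumor samples 2 and 4, with 103 and 187 CPM, the highest of theirs, while tumor samples 1, 5 and 6 lay below every benign sample. The log2 fold change was -0.48 (95% interval -2.33 to 1.36, adjusted p = 0.69 by edgeR). It was 0.17 without benign sample 4 and 0.997 without the muscle-rich benign samples.

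Cp (chr3:19956933-20009750) was even in benign tissue and uneven in tumors. The benign samples lay between 134.6 and 215 CPM (median 180.3), a highest-to-lowest ratio of 1.60, and the tumors between 26.6 and 954 CPM (median 307), a ratio of 35.9. Tumor samples 2, 3 and 4 lay above all benign samples, tumor samples 1 and 5 lay below all of them, and tumor sample 6 fell within their range. The log2 fold change of 1.16 (95% interval -0.23 to 2.54) did not pass (adjusted p = 0.18 by edgeR), and in the exact permutation test on log2 CPM the p-value was 0.903. It passed when tumor sample 1 or tumor sample 5 was left out (log2 fold change up to 1.47).

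Pigr (chr1:130826684-130852249), the carrier of dimeric IgA, was the other gene without overlap. It ranged from 0.888 to 30.3 CPM in the benign samples (median 11.2) and from 74.55 to 520 CPM in the tumors (median 122). Benign samples 4 and 6, with 10 and 5 counts, were the lowest, and tumor sample 4 was the highest. The log2 fold change was 4.02 (SE 0.75, adjusted p = 5.6e-04 by edgeR; exact permutation test, p = 0.00216) and lay between 3.48 (without tumor sample 4) and 4.64 (without benign sample 2) when single samples were left out. Without the muscle-rich benign samples, which include benign samples 4 and 6, it was 3.32 (adjusted p = 0.0044 by edgeR). Jchain, the joining chain of the polymeric immunoglobulin that Pigr carries, averaged 6.57 CPM in the benign samples and 0.368 CPM in the tumors and was below the expression filter. The immunoglobulin chain genes Igha, Ighm and Igkc were looked for and were absent from the count table. Other immunoglobulin heavy and light chain genes were not analysed here.

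Neither mucin passed the test. Muc1 (chr3:89229056-89233381) lay between 6.21 and 21.1 CPM in the benign samples (median 15.1) and between 3.74 and 25.9 CPM in the tumors (median 18.6), with a log2 fold change of 0.20 (95% interval -0.62 to 1.02, adjusted p = 0.71 by edgeR). Muc15 (chr2:110721494-110739537) was more abundant (118 against 6.54 CPM per kilobase of exon in the benign samples), between 87.2 and 728 CPM in the benign samples (median 439.5) and between 45.8 and 706 CPM in the tumors (median 419), with a log2 fold change of -0.15 (95% interval -1.3 to 1.0, adjusted p = 0.84 by edgeR). The lowest tumor was tumor sample 1 for Muc1 and tumor sample 5 for Muc15, and benign sample 6 was the lowest of its group for both.

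The WAP-domain genes moved in opposite directions. Wfdc18 (chr11:83709004-83711360), a small secreted protein of mammary epithelium, ranged from 22.5 to 402 CPM in the benign samples (median 142) and from 71.45 to 1588 CPM in the tumors (median 943), and its log2 fold change was 2.43 (SE 0.80, adjusted p = 0.019 by edgeR). Tumor samples 2, 3 and 4 held 1459 to 1588 CPM, tumor sample 6 held 426 CPM, and tumor samples 1 and 5, at 71.45 and 252 CPM, lay inside the benign range, so 4 of 6 tumors were above the highest benign sample. Without the muscle-rich benign samples Wfdc18 did not pass (log2 fold change 1.88, adjusted p = 0.12 by edgeR).

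Wfdc2 and Slpi fell. Wfdc2 (chr2:164562715-164568510) ranged from 7.97 to 32.8 CPM in the benign samples (median 16.3) and from 0.311 to 8.57 CPM in the tumors (median 2.07), and 5 of 6 tumors lay below the lowest benign sample, tumor sample 5 being the exception. Its log2 fold change was -2.47 (SE 0.64, adjusted p = 0.0052 by edgeR; exact permutation test, p = 0.00433). Slpi (chr2:164354070-164356507, minus strand), an inhibitor of neutrophil elastase, ranged from 14.6 to 106 CPM in the benign samples (median 39.7) and from 0.467 to 32.4 CPM in the tumors (median 4.77). Tumor samples 2 and 3 overlapped the benign samples and the other 4 tumors lay below all of them, with a log2 fold change of -2.22 (SE 0.80, adjusted p = 0.030 by edgeR). In tumor sample 1 these values rest on 2 counts of Wfdc2 and 3 counts of Slpi. The log2 fold change of Slpi lay between -2.85 (without tumor sample 3) and -1.89 (without benign sample 3, adjusted p = 0.07 by edgeR) when single samples were left out. Without the muscle-rich benign samples Slpi did not pass (log2 fold change -1.90, adjusted p = 0.14 by edgeR), while Wfdc2 did (-1.92, adjusted p = 0.061).

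Spp1 (chr5:104435111-104441053) had the widest spread of log2 CPM among the genes that rose. It ranged from 5.56 to 114 CPM in the benign samples (median 78.8), where samples 1 and 2, at 5.56 and 8.95 CPM, stood below the other 4, at 65.9 to 114 CPM. The tumors lay between 82.8 and 2693 CPM (median 239), with tumor samples 2 and 3 at 2097 and 2693 CPM and the other 4 at 82.8 to 303 CPM. In 5 of 6 tumors Spp1 was above the highest benign sample, and tumor sample 6 was inside the benign range. The log2 fold change was 3.79 (SE 1.05, adjusted p = 0.0077 by edgeR; exact permutation test, p = 0.0108) and was 5.12 without the muscle-rich benign samples and 3.15 without tumor sample 3, called in both.

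**Figure D2:**
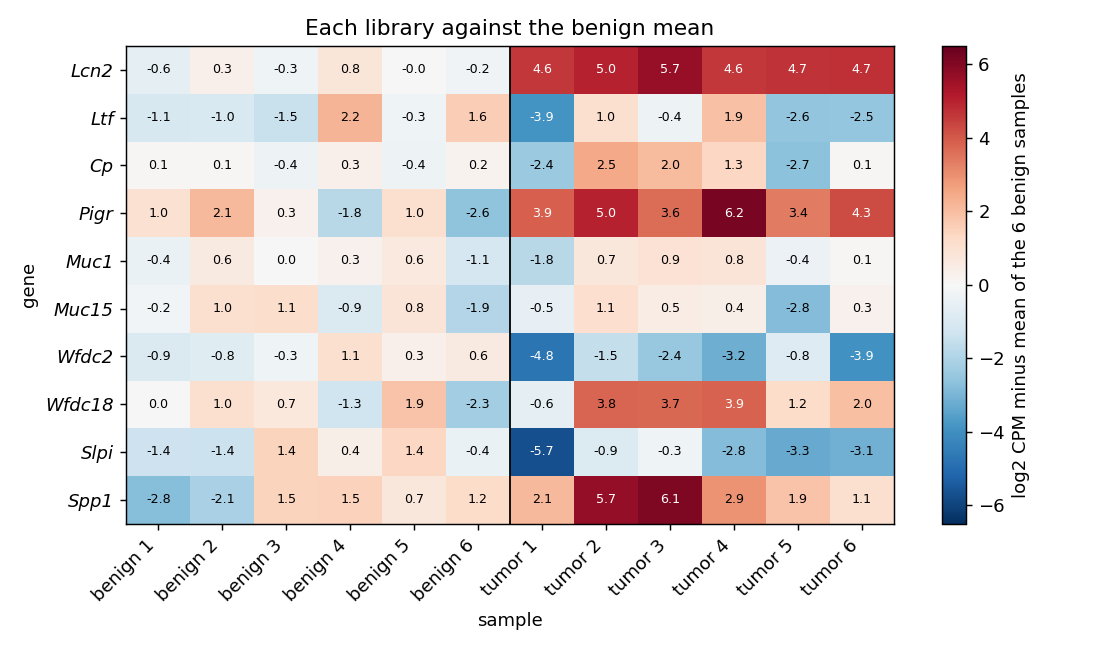
log2 CPM of each gene (rows) in each of the 12 libraries (columns) minus the mean of the 6 benign samples, with red above and blue below that mean. Lcn2, Pigr and Spp1 were above the benign mean in all 6 tumors, whereas Cp, Ltf, Muc1, Muc15 and Wfdc18 were below it in tumor sample 1 and above it in tumor sample 4.

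Tumors differed among themselves for most of these genes. The SD of log2 CPM was larger in tumors than in benign tissue for 8 of 10 members (all except Lcn2 and Pigr), against 43.3% of all genes tested, and it was 2.24 against 0.29 for Cp. Tumor samples 1 and 5 were the lowest pair of the 6 tumors for 6 of 10 members (Ltf, Cp, Muc1, Muc15, Wfdc18 and Slpi), while this held for 12.8% of all genes. Benign samples 4 and 6 were the lowest pair of their group for Pigr, Muc15 and Wfdc18 (3 of 10, against 21.7% of all genes) and the highest pair for Ltf, Cp and Wfdc2 (3 of 10, against 20.6%). These patterns were chosen after the values were seen and are given as descriptions. Muscle markers were high in benign samples 4 and 6, their luminal epithelium markers summed to 1260 and 700 CPM, and the part of either in these differences was not tested.

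Levels between genes were compared as CPM per kilobase of exon. In benign tissue the order of the means was Wfdc18 (313 CPM per kb), Lcn2 (173), Muc15 (118), Slpi (58.2), Spp1 (40.1), Cp (30.1), Ltf (29.0), Wfdc2 (20.9), Muc1 (6.54) and Pigr (3.03). From Wfdc18 down to Ltf each neighboring pair kept this order in 4 of 6 benign samples, and Ltf stood above Wfdc2 in 2 of 6. The order among these neighbors thus varied between samples, and their differences were not tested. Wfdc2 stood above Muc1 and Muc1 above Pigr in all 6. In tumors the order was Lcn2 (5053 CPM per kb), Wfdc18 (1691), Spp1 (556), Muc15 (107), Cp (67.2), Pigr (50.0), Ltf (20.7), Slpi (12.5), Muc1 (7.53) and Wfdc2 (3.73). Lcn2 stood above Wfdc18 and Wfdc18 above Spp1 in all 6 tumors. By contrast, Cp stood above Pigr, and Slpi above Muc1, in 2 of 6 tumors each, and Ltf above Slpi in 3 of 6.

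The genes were also compared after scaling each library to the mean log2 CPM of 10 luminal epithelium markers (Epcam, Cdh1, Krt8, Krt18, Cldn3, Cldn4, Cldn7, Esrp1, Esrp2 and Grhl2). The markers themselves did not all move together. Scaled this way, their log2 fold changes ran from -1.29 (Cldn4) to 0.70 (Epcam), and edgeR's test called 3 of the 10 higher and 1 lower. Shifts of about this size, as for Wfdc18 and Muc1, are close to the spread of the reference itself. On this scale the median log2 fold change of all genes tested was -1.78, and 3.27% of genes were higher and 87.9% lower in tumors by the same test. Lcn2 (log2 fold change 3.13, SE 0.43, adjusted p = 4.0e-06), Pigr (2.64, SE 0.57, adjusted p = 3.1e-04), Spp1 (1.79, adjusted p = 0.058) and Wfdc18 (1.05, adjusted p = 0.085) were higher relative to the markers (4 of 10), by edgeR. Taken as log2 CPM minus the marker mean, Lcn2 lay between 0.0075 and 1.79 in the benign samples and between 3.61 and 4.67 in the tumors, and Pigr between -5.20 and -2.07 and between -1.76 and 0.79. Without the muscle-rich benign samples Lcn2 was at 3.74, Pigr at 1.98 and Spp1 at 3.96, and Wfdc18 did not pass. In the exact permutation test on log2 CPM minus the marker mean, the p-value was 0.00216 for Lcn2 and Pigr, 0.186 for Spp1 and 0.34 for Wfdc18. The edgeR calls of Spp1 and Wfdc18 were not stable. Spp1 did not pass without tumor sample 2 or 3, where its log2 fold change was as low as 1.09, and Wfdc18 did not pass in 7 of the 12 fits without a single sample.

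Of the 10 members, 5 were lower relative to the epithelial markers, against 87.9% of all genes tested. The members were chosen as epithelial genes, whereas all genes tested include those of fat, muscle and stroma. On a scale set by epithelial markers the shares of members and of all genes are therefore not like for like. Nothing is read from the difference between them. Wfdc2 (log2 fold change -4.36, SE 0.72, adjusted p = 2.9e-05), Slpi (-3.86, SE 0.71, adjusted p = 8.3e-05), Ltf (-2.72, adjusted p = 0.011), Muc15 (-1.57, adjusted p = 0.0043) and Muc1 (-1.38, adjusted p = 0.0022) passed edgeR's test, and Cp (-0.81, adjusted p = 0.24) did not. The values of Muc1 and Muc15 were above the median of all genes (-1.78), and those of Ltf, Slpi and Wfdc2 below it. Log2 CPM of Muc1 minus the marker mean lay between -2.93 and -2.18 in the benign samples and between -5.78 and -3.52 in the tumors, without overlap. For 3 of 10 members (Muc1, Wfdc2 and Slpi) all 6 tumors lay below all benign samples on this scale, as they did for 66.9% of all genes, so nothing is read from this count. All tumors lay above all benign samples for Lcn2 and Pigr (2 of 10), against 1.39% of genes. Ltf was -0.44 (adjusted p = 0.64 by edgeR) without the muscle-rich benign samples, and the other 4 genes kept their calls, with Wfdc2 at -3.16 and Slpi at -3.10. Leaving out single samples moved Ltf to -2.03 (without benign sample 6) or -3.55 (without tumor sample 4). Slpi moved to -3.62 (without benign sample 3) or -4.52 (without tumor sample 3). Wfdc2 moved to -3.88 (without benign sample 6) or -5.04 (without tumor sample 5), and all were still called. Both comparisons rest on the same samples, so they are not independent of each other.

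**Figure D3:**
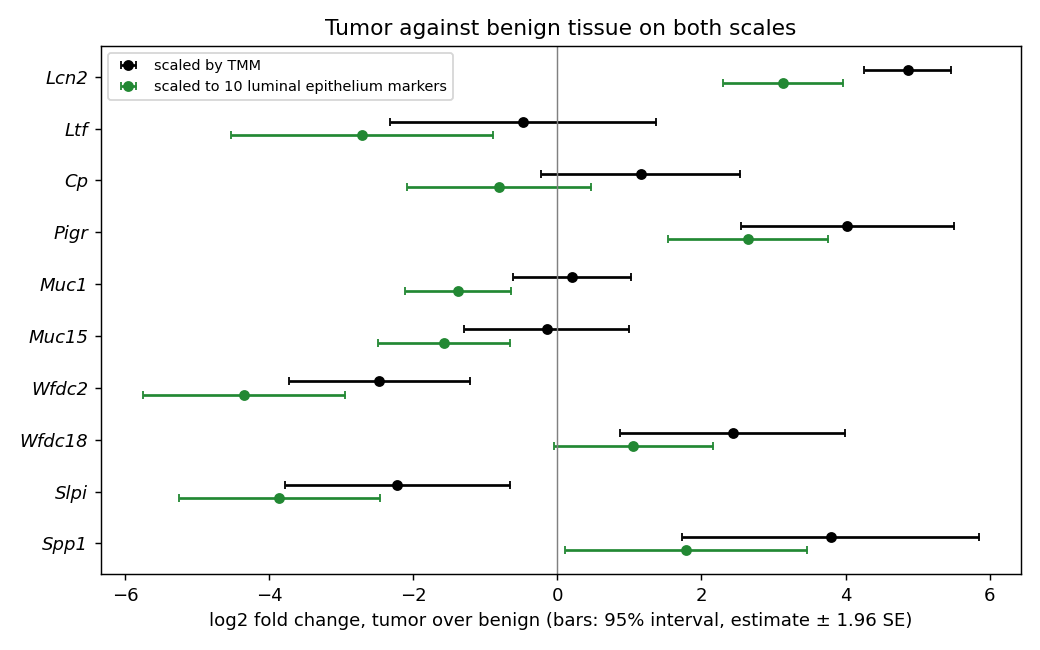
log2 fold change of each gene, tumor over benign, scaled by TMM (black) and to the luminal epithelium markers (green), with 95% intervals. The estimates of Lcn2, Pigr, Spp1 and Wfdc18 were above 0 and those of Ltf, Muc15, Slpi and Wfdc2 below 0 on both scales. Those of Cp and Muc1 changed sign. The intervals of Ltf and Muc15 on the TMM scale and of Wfdc18 on the marker scale included 0. Values on the marker scale were lower for all 10 genes, since it shifts the median of all genes by 1.73.

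Several members are also made by immune cells. Neutrophils, for example, store lipocalin 2 and lactoferrin in their granules. Of 13 neutrophil markers 9 were in the table and 2 were tested, the summed level of the 9 was 5.94 to 25.2 CPM in the benign samples and 4.17 to 9.63 CPM in the tumors, and the granule gene Ngp was at 0 in every tumor and in 5 of 6 benign samples. Lcn2 held at least 3637 CPM in each tumor, and the part of neutrophils in this level was not tested. Of 11 macrophage markers 8 were lower and none was higher in tumors (edgeR; 0 also by DESeq2), and their sum was 650 to 1272 CPM in the benign samples and 365 to 661 CPM in the tumors, where Spp1 was higher. Tumor samples 2 and 3, which had the most Spp1, held the highest macrophage sums among the tumors, 661.5 and 661 CPM, and the part of macrophages in that difference was not tested. B cell and plasma cell markers summed to 12.4 to 68.3 CPM in the tumors, and most of that was Derl3 (9.77 to 63.0 CPM), the 1 of 2 tested genes that was higher. Other markers on the list were low in the tumors, with Cd79b at 0.138 CPM or less and Mzb1 at 0.256 CPM or less. In the benign samples Cd79b ranged from 0.178 to 101 CPM and Mzb1 from 0.250 to 9.63 CPM. Benign sample 1 held 592 CPM of this list, against 6.39 to 19.6 CPM in the other benign samples. DESeq2 called 1 gene of the list higher and 3 lower.

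**Figure D4:**
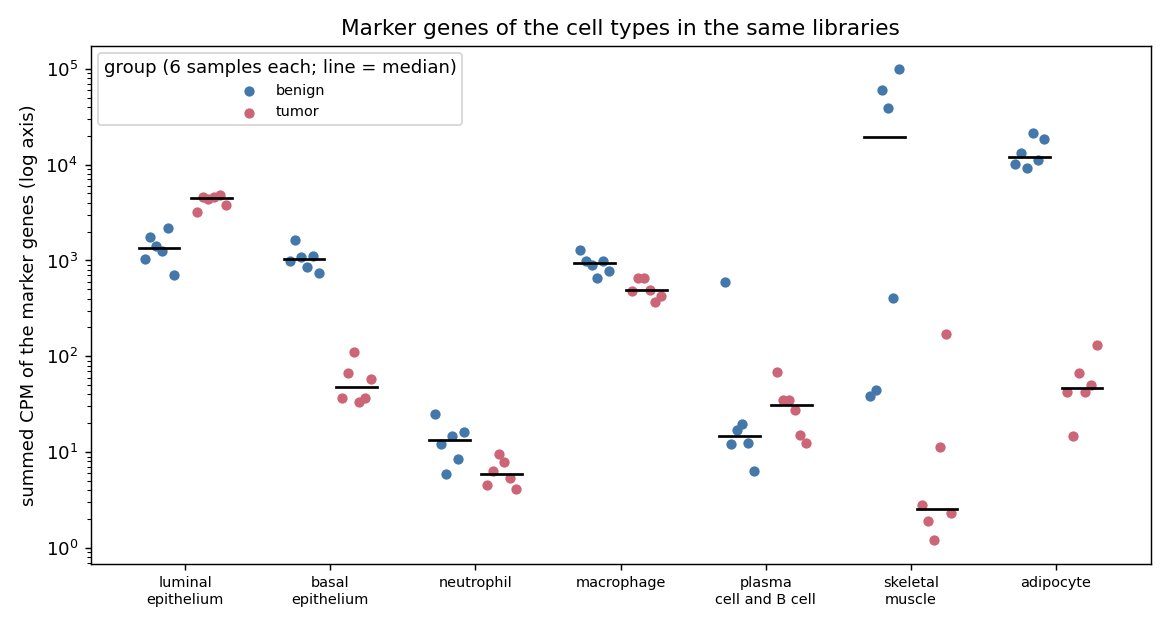
Summed CPM of marker genes of 7 cell types on a log axis in 6 benign and 6 tumor samples, with a line at the median. Luminal epithelium markers were higher in every tumor, neutrophil markers stayed at or below 25.2 CPM in all libraries, and skeletal muscle markers split the benign samples.

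Other genes of these pathways were taken from lists. For comparison with the counts below, edgeR's test called 28.2% of all genes tested higher and 34.8% lower. Of 19 iron-handling genes tested, 6 rose and 11 fell (median log2 fold change -0.65). Haptoglobin (Hp), the plasma carrier of hemoglobin, averaged 271 ± 165 CPM in the benign samples and 10.5 ± 6.07 CPM in the tumors, and hephaestin (Heph), a ferroxidase related to Cp, 60.3 ± 13.5 and 2.71 ± 1.94 CPM (mean ± SD, n = 6), with log2 fold changes of -4.68 and -4.46. Transferrin (Trf) and Slc22a17, a receptor for lipocalin 2, were picked out after their values were seen. Trf averaged 1551 ± 415 CPM in the benign samples and 20087 ± 10858 CPM in the tumors (log2 fold change 3.69), and Slc22a17 40.9 and 109 CPM (1.42), with every tumor above every benign sample for both. Scaled to the luminal epithelium markers, Trf was at 1.97 (adjusted p = 7.3e-04 by edgeR). Slc22a17 was at -0.21 on that scale and did not pass (adjusted p = 0.53 by edgeR).

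Of 15 other mucin genes 6 were in the table and 3 were tested. Muc4, a membrane mucin that associates with Erbb2, averaged 17.8 ± 11.2 CPM in the benign samples and was at 0 in 4 of 6 tumors, and the endothelial sialomucin Emcn averaged 47.2 ± 11.1 and 7.26 ± 0.88 CPM. Both were called lower, and Muc20 was called higher. The enzymes that build mucin-type O-glycans numbered 18 among the genes tested, of which 9 were higher and 4 lower (median log2 fold change 0.69). St6galnac4, a sialyltransferase, rose from 20.8 ± 2.0 to 322 ± 134 CPM and Galnt3, which adds the first sugar, from 31.9 ± 16.2 to 429 ± 71.8 CPM, with log2 fold changes of 3.96 and 3.74 and every tumor above every benign sample.

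Of 20 other WAP-domain genes 10 were in the table and 3 (Wap, Wfdc3 and Wfdc17) passed the filter. None of the 3 was called by edgeR, 0 had an unadjusted p-value under 0.05, and DESeq2, which tested genes that the filter removed, called 1 higher and 4 lower. All 15 genes tested among the receptors, relatives and proteases of osteopontin were called, 8 higher and 7 lower (median log2 fold change 0.32). Among all genes tested 63.0% were called in either direction, and DESeq2 called 8 genes of this list higher and 6 lower. The integrin subunit Itga8 rose from 13.5 ± 2.82 to 135 ± 80.9 CPM (log2 fold change 3.32), and the protease urokinase (Plau) fell from 66.6 ± 7.48 to 9.78 ± 3.45 CPM (-2.77).

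Among 9 tested genes for other antimicrobial and mucosal proteins, 3 were higher and 4 lower (median log2 fold change 0.64). The chitinase-like protein Chil1 rose by 5.80 on the log2 scale, from 28.5 ± 10.4 to 1585 ± 1312 CPM (adjusted p = 1.3e-06 by edgeR). Pglyrp1, which binds bacterial peptidoglycan, averaged 4.49 ± 3.64 CPM in the benign samples and 103 ± 206 CPM in the tumors with a log2 fold change of 4.52 (adjusted p = 0.0071 by edgeR), and tumor sample 5 alone held 523 CPM. Of 26 tested genes for NF-kB, STAT3 and C/EBP factors and cytokine receptors, 6 were higher and 9 lower (median 0.03). Cebpa, a C/EBP factor of fat cells and liver, fell from 473 ± 120 to 28.2 ± 7.64 CPM, and Spdef, an ETS factor of secretory epithelia, rose from 2.76 ± 1.20 to 20.1 ± 25.9 CPM (log2 fold changes -4.07 and 2.84). Without the muscle-rich benign samples the last list held 3 higher and 10 lower genes, and the antimicrobial list 5 and 4.

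For each member the genes with the most similar values were sought among 10812 genes, by Pearson's r of log2 CPM deviations from the group means over 12 samples. Cp was most similar to Btn1a1, butyrophilin of the milk fat globule (r = 0.978), Muc15 to Ptprf (0.972), Wfdc18 to Vdr, the vitamin D receptor (0.966), and Spp1 to Arhgap35 (0.960). Pigr was closest to Fam234b (0.953), Ift88 and the epithelial ETS factor Ehf (0.930), Wfdc2 to Maff (0.953), Ltf to Gpat4 (0.948), Muc1 to Litaf (0.921), Slpi to Pak1 (0.891) and Lcn2 to Coro2b (0.878). The points share library, depth and tissue composition and each gene was picked as the highest of 10812, so these are descriptions with no test.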

How the data were processed

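RNA was sequenced from 6 mammary tumors and 6 benign mammary samples. The authors extracted RNA with TRIzol and RNeasy and made directional libraries, and, per the labels' processing notes, used Trim Galore, Salmon and the mm10 build. The authors deposited estimated counts for each gene, as whole numbers that were not scaled for library size. The annotation and versions are not given in the sources used here. Salmon shares reads among similar transcripts, so counts are estimates. Library totals were 5240853 to 8588567, and 0 columns were left without a sample. At the mean library size 3 counts correspond to 0.414 CPM. Every pair of replicates differed by more than sampling noise (chi-square per degree of freedom at least 11.3).

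Genes were filtered with filterByExpr (minimum count 10, total 15), scaled by TMM and tested with edgeR 4.0.16 in R 4.3.3 (threshold 0.1, as in the study). log2 CPM used 2 added counts. Single members were also tested by exact permutation over 924 regroupings. Intervals cover the fitted error only. DESeq2 1.42.0, upper-quartile scaling, library totals, a threshold of 0.05, filters of at least 1 count in total or 10 in every sample, a block for replicate number, fits without single samples or without the 3 muscle-rich benign samples, and a reference of Krt8, Krt18 and Epcam were alternatives. The members and gene lists were chosen with earlier results of these data known. All members are named. From each related list the 2 called genes with the largest change and at least 10 CPM in the higher group are named, and up to 3 similar genes per member. Marker lists of fibroblasts, endothelium and fat cells were lower in tumors (8 of 8, 7 of 7 and 9 of 9 tested genes), those of skeletal muscle (7 of 7) too, while brown fat (1 higher, 2 lower of 4) and milk genes (3 and 3 of 8) were mixed. Exon lengths are from GENCODE M21. Tests were tried on simulated data.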

Additional observations from a re-analysis of the deposited data

Results flagged for a closer look

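Lcn2 in tumor sample 3, at 12.9 log2 CPM, stood apart from the other 5 tumors, which lay between 11.8 and 12.2 log2 CPM. Its gap to the nearest tumor was 0.627 of the range of the group, just above Dixon's 95% limit for 6 samples. It was the only such sample in the 20 groups checked (10 genes in both tissues), and chance flags about 1 group in 20. Without it the log2 fold change of Lcn2 was 4.73 in place of 4.86.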

How the results depend on the processing

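On the TMM scale 4 members were higher and 2 lower with DESeq2, upper-quartile scaling, library totals, at least 1 count in total and the replicate block (4 higher and 2 lower with the block), and 4 to 5 were higher and 2 lower when single samples were left out. With a filter of 10 counts in every sample the count of lower members was 0, and that of higher members 3, as this removed Slpi, Wfdc2 and Pigr from the genes tested, and the count of lower members was 1 without the 3 muscle-rich benign samples, a fit with fewer samples. Genes higher among all tested ranged from 3539 to 4188 and genes lower from 4208 to 4551 when single samples were left out. Ltf reversed to 0.997 without the muscle-rich samples and ranged from -1.25 to 0.17 when single samples were left out, and Muc15 ranged from -0.36 to 0.14. On the marker scale the count of higher members was 2 at a threshold of 0.05 and 2 with the replicate block, and 2 to 4 when single samples were left out (2 without tumor sample 2 or 3). The count of lower members was 5 to 6 in those fits and 3 under the filter of 10 counts. Beyond the constructions named, the cause was not tested. With the block Spp1 was 3.10 and Cp 0.20 on the TMM scale, with the calls as before. The labels number both groups from 1 to 6, but the samples came from different mice, deviations of same-numbered samples correlated between -0.124 and 0.103, and no benign sample correlated best with its own number (0 of 6), so the numbers do not pair them. Precision is limited by 6 samples per group and, for Wfdc2, Slpi and Pigr, by counts of 2 to 10 in single libraries. The paper does not state whether the samples of a group each came from a different mouse.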
